A study of Homo sapiens with 7 samples.

Results

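The subject is a set of 36 genes known from the literature as targets of the estrogen receptor, all found by name in a table of 63677 genes. Each name belonged to 1 Ensembl gene. RNA was sequenced from 7 libraries of T47D, a human luminal breast cancer line that carries the estrogen receptor. Parental T47D cells, sensitive to palbociclib, an inhibitor of the cell cycle kinases CDK4 and CDK6, gave 3 libraries. A pair of resistant clones, clone 4 and clone 2, gave 2 libraries each. Resistant cells had been selected over 6 months in palbociclib rising from 1 uM to 5 uM, and per the labels experiments were run without the drug unless stated. The medium of all groups held serum, insulin, EGF and hydrocortisone. No library was labelled as given or deprived of estrogen, so that membership rests on other work and the response of these genes to estrogen was not measured here. Each resistant line is a single clone, and nothing labels the replicates as separate cultures. What the p-values weigh is thus only how these libraries vary, which may be technical.

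The estrogen receptor, encoded by ESR1, is a nuclear receptor that binds DNA when its hormone is bound. The pioneer factor FOXA1 opens the chromatin at many of its sites, and coactivators or corepressors then raise or lower transcription. In luminal breast cells its target genes cover secreted trefoil peptides, growth factors, transcription factors, scaffolds, chaperones of steroid receptors and membrane enzymes, and several serve as readouts of endocrine therapy.

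The libraries held 10997625 to 17524621 counts each. Levels are TMM-scaled CPM, which set a gene's counts against the size of its library, a "call" is an edgeR adjusted p below 0.05 over the 17502 genes tested, and all 36 members were tested. All 8 luminal markers were detected in every library, with a summed level of 13945 to 17622 CPM in parental cells, 11243 and 12575 in clone 4 and 9716 and 10169 in clone 2. Most of the fall in this sum was KRT8, with means of 6868, 3541 and 2742 CPM in the same order. KRT18 had means of 2901, 2340 and 1398 CPM, and its fall was called only in clone 2. GATA3 and KRT19 were called in neither clone. EPCAM rose and CDH1 fell in clone 4, and ESR1 and FOXA1 fell in clone 2. The 6 leukocyte markers summed to 1.25 to 3.41 CPM, with TYROBP at 0 counts throughout. The 5 basal markers summed to 61.1 to 109 CPM in parental cells, 162 to 242 in clone 4 and 238 to 246 in clone 2, most of it KRT15. The 6 fibroblast markers summed to 40.2 to 42.4, 71.6 to 104 and 214 to 238 CPM in the same order, where COL3A1 had 103 and 88.4 CPM in clone 2 and at most 1 count in any other library. COL1A1, most of the sum elsewhere, rose from a mean of 40.8 CPM in parental cells to 87.8 in clone 4 and 126 in clone 2. LUM and DCN rose in clone 2 by 3.06 and 2.21 on the log2 scale (edgeR adjusted p = 5.74e-05 and 0.00596), at no more than 3.54 CPM. COL1A2 stayed at or below 0.297 CPM and PDGFRB at 1 count or fewer. The part of these other cell markers in the results below was not tested. In bulk RNA, fewer cells expressing a gene and less RNA per cell cannot be told apart.

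Promoters were read for 27 of the 36 members from RefSeq (GRCh38.p14), as windows of 250 bases before to 50 bases after a listed start. No window was found for the other 9, which were not searched: GREB1, TFF1, TFF3, RERG, SGK3, CELSR1, ADCY9, FKBP4 and WISP2. The full estrogen response element, a palindrome of GGTCA, NNN and TGACC, was in no window of the 27 members and in 0.0732% of 27305 genes with a window. Its extended half-site AGGTCA, searched on both strands as AGGTCA or TGACCT, was in 6 of the 27 members, or 22.2%, and in 16.5% of all genes. Those members were PDZK1, CXCL12, RARA, MREG, AGR3 and ANXA9. Most known receptor sites lie far from start sites, and a match of letters is a description, while no match says only that these letters are not in the window. A gene with several listed starts was counted once if any of its windows held the letters. The 250 bases before the start are shown for 4 members, chosen after their values were seen: PDZK1 and SUSD3, with the largest rise and fall of the members against parental cells, HSPB8 with a fall in clone 4 and a rise in clone 2, and CXCL12 as a member with the half-site that fell in both clones. Capitals mark the half-site, which began 69 bases before the PDZK1 start and 209 bases before the CXCL12 start, and was not found in the HSPB8 and SUSD3 stretches.
PDZK1, chr1:145707401-145707650, minus strand: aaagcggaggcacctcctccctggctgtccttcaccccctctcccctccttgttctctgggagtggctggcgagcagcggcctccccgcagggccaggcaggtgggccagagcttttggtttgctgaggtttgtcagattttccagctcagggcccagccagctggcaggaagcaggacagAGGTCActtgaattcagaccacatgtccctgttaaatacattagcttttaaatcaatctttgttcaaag
CXCL12, chr10:44385098-44385347, minus strand: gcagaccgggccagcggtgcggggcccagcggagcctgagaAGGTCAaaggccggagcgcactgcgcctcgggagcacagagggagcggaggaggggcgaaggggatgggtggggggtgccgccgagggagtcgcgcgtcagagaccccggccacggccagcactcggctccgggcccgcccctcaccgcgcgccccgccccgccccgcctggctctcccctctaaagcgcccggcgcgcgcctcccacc
HSPB8, chr12:119178681-119178930, plus strand: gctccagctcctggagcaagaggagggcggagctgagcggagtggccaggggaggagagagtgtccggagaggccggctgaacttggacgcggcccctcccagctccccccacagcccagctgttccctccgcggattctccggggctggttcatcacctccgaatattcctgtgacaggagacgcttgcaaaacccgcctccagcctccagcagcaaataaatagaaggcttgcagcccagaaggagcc
SUSD3, chr9:93058451-93058700, plus strand: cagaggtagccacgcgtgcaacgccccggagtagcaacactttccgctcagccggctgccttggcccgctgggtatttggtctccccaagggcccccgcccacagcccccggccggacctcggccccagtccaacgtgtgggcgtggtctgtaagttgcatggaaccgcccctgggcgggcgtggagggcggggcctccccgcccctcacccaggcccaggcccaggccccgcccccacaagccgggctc

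In clone 4 the members were mostly lower than in parental cells. Of the 36, 20 fell, 4 rose and 12 were not called, with a median log2 fold change of -0.34. Among all genes tested 22.3% fell and 22.1% rose, with a median of 0.01. The members that rose were TFF1, PDZK1, RERG and AGR3. The receptor gene itself was not called there: ESR1 stood at 183, 169 and 176 CPM in the parental libraries and at 179 and 162 in clone 4, or -0.05 on the log2 scale (SE 0.0962, edgeR adjusted p = 0.72). In clone 2, 15 members fell, 7 rose and 14 were not called, with a median of 0.00, against 20.8% and 21.7% of all genes and a median of 0.02. There ESR1 fell to 88.4 and 95 CPM, or -0.94 on the log2 scale (SE 0.0997, edgeR adjusted p = 7.46e-06). Both comparisons share the parental libraries, so their counts are not independent of each other.

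Set directly against clone 4, clone 2 had 18 members higher and 4 lower, with 14 not called and a median log2 fold change of 0.41. Among all genes 19.6% were higher and 17.0% lower, with a median of 0.03. ESR1 went the other way, at -0.89 on the log2 scale (SE 0.107, edgeR adjusted p = 4.9e-05) in clone 2 against clone 4. The members had a median level of 76.3 CPM, against 16.6 CPM over all genes tested. The part of this level in the shares called was not tested. Libraries of the groups compared did not overlap in 61.2% of all genes tested for clone 4 against parental cells. This share was 65.8% for clone 2 against parental cells and 72.2% between the clones. Among the members it was 69.4%, 77.8% and 88.9% in the same order.

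**Figure D1:**
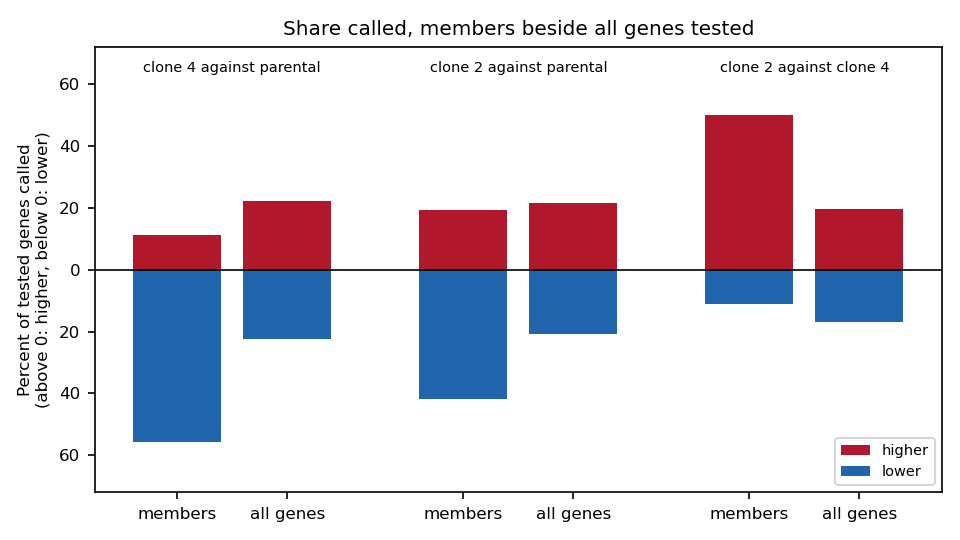
Bars give the percent of tested genes called higher (above 0) or lower (below 0) at an edgeR adjusted p below 0.05, for the 36 members and for all 17502 genes in each comparison. In clone 4, 55.6% of the members were lower, and between the clones 50% were higher in clone 2.

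**Figure D2:**
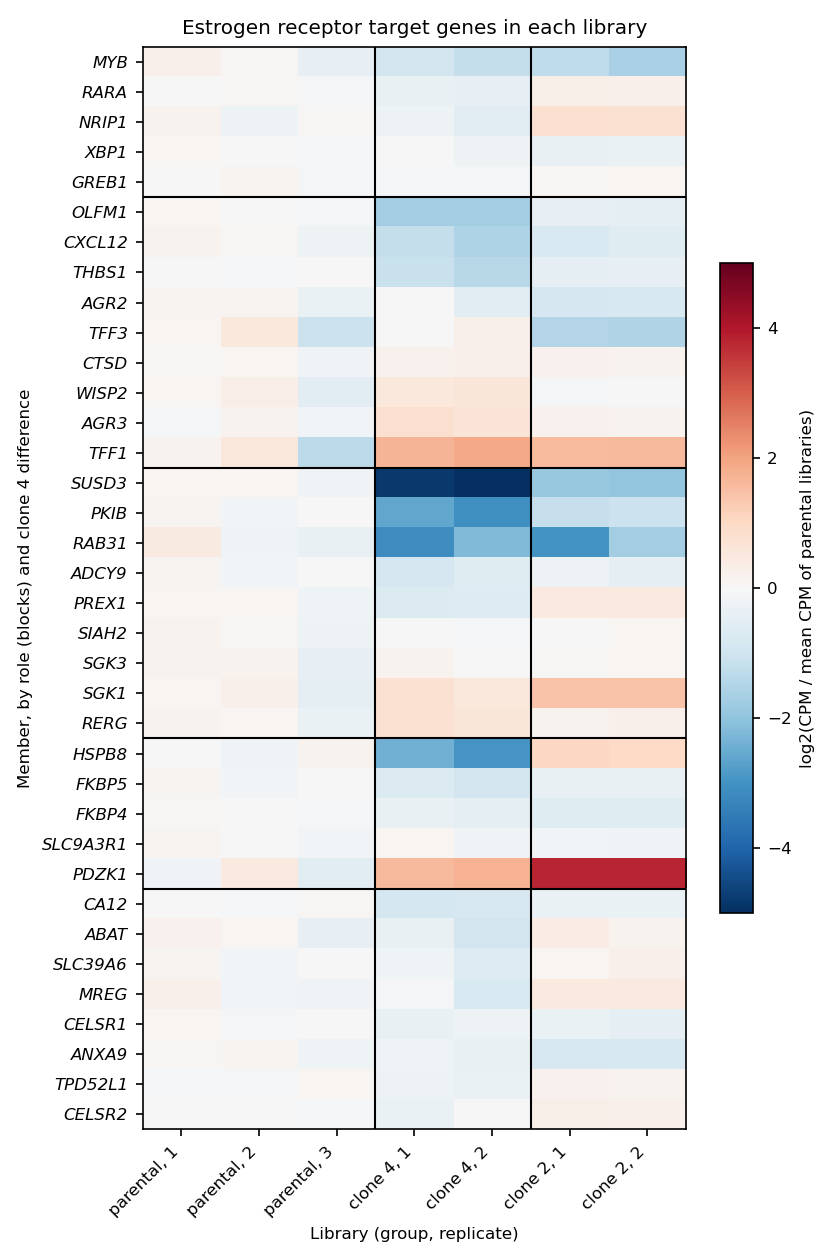
Each cell is the log2 ratio of a member's CPM in 1 library to its mean in the 3 parental libraries, with members in blocks by role. SUSD3, PKIB, RAB31 and HSPB8 are the deepest blue in clone 4, and PDZK1 is the deepest red in clone 2.

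Per kilobase of exon, taken from GENCODE lengths that may differ from the authors' gene models, AGR2 was the most abundant member in parental cells, at 708 CPM per kilobase. It was followed by XBP1 at 388, CTSD at 354 and SLC9A3R1 at 211. SGK1 was lowest at 0.183, then RAB31 at 0.838, WISP2 at 1.16 and PDZK1 at 1.57. TFF1, often used as an estrogen readout, stood at 3.31, below its neighbour in the trefoil family TFF3 at 42.2.

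Among the 5 transcription regulators, GREB1 was called in no comparison and MYB fell in both clones. GREB1, a chromatin-bound cofactor of the receptor and among its best known targets, had 320.0, 352 and 300.3 CPM in parental cells, 309 and 305 in clone 4, and 339 and 349 in clone 2. The libraries of either clone lay within the parental range. Its log2 fold changes were -0.08 (SE 0.0986, edgeR adjusted p = 0.548) in clone 4 and 0.09 (SE 0.0982, edgeR adjusted p = 0.51) in clone 2. MYB, a proto-oncogene transcription factor, had 26.2, 22.5 and 16.3 CPM in parental cells, 11.6 and 9.6 in clone 4 and 9.04 and 7.14 in clone 2. All resistant libraries lay below the lowest parental one, with log2 fold changes of -1.02 (SE 0.196, edgeR adjusted p = 8.83e-04) and -1.43 (SE 0.202, edgeR adjusted p = 8.56e-05). XBP1, a factor of the unfolded protein response, fell in clone 2 by 0.35 on the log2 scale, and was at -0.13 in clone 4 and not called. The clone 2 call was lost without parental replicate 1 or either clone 2 library, with edgeR adjusted p up to 0.148.

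NRIP1 and RARA differed between the clones. NRIP1, a corepressor that the hormone-bound receptor recruits, had 36.4, 27.1 and 34.2 CPM in parental cells, 27.1 and 22.4 in clone 4 and 56.2 and 54.6 in clone 2. The clone 2 libraries were the highest, while a clone 4 library equalled the lowest parental one. NRIP1 rose in clone 2 by 0.77 on the log2 scale (SE 0.131, edgeR adjusted p = 3.88e-04) and was 1.16 (SE 0.149, edgeR adjusted p = 8.53e-05) above clone 4. Its fall in clone 4, -0.39 (edgeR adjusted p = 0.0371), was lost without parental replicate 1 or 3, clone 4 replicate 2 or either clone 2 library, with adjusted p up to 0.25. RARA, the retinoic acid receptor alpha, fell by 0.41 in clone 4 and was higher by 0.27 in clone 2. The clone 2 call (edgeR adjusted p = 0.033) was lost without parental replicate 1 or 3 or either clone 2 library, with adjusted p up to 0.232. Between the clones RARA differed by 0.68 (SE 0.107, edgeR adjusted p = 3.37e-04), a call kept without any single library. Counts of a gene on the opposite strand of NRIP1 exons, AF127577.1, came to 40.2% of those of NRIP1, and whether the counting used strand is not known.

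Secreted members moved in opposite ways. TFF1, a trefoil peptide of mucosal secretions, had 2.06, 2.67 and 0.733 CPM in parental cells, 5.84 and 6.68 in clone 4 and 5.46 and 5.66 in clone 2. Every resistant library was above every parental one, although the level was low, with 10 to 45 counts per parental library. It rose by log2 fold changes of 1.74 (SE 0.317, edgeR adjusted p = 6.02e-04) and 1.58 (SE 0.319, edgeR adjusted p = 0.00134). TFF3, another trefoil peptide, had 52.5, 71.8 and 23.5 CPM in parental cells, 50 and 59.4 in clone 4 and 17.8 and 17.4 in clone 2. The parental libraries spread widely, and the clone 2 value of -1.49 (SE 0.494, edgeR adjusted p = 0.0625) was not called, although it was called without parental replicate 3 (-1.83, edgeR adjusted p = 4.26e-06) or parental replicate 2 (-1.10, edgeR adjusted p = 0.0226). DESeq2 also called it (-1.51, DESeq2 adjusted p = 0.0117). Between the clones TFF3 was at -1.63 in clone 2 (SE 0.527, edgeR adjusted p = 0.0639). Their libraries did not overlap, as in 72.2% of all genes tested. The value of -1.63 was called by DESeq2 (DESeq2 adjusted p = 0.0134), with only the clones in the fit (edgeR adjusted p = 1.6e-04) and without parental replicate 2 or 3 (0.00384 and 2.09e-05).

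OLFM1, CXCL12 and THBS1 fell in both clones, and further in clone 4. OLFM1, an olfactomedin-domain glycoprotein, had 218, 199.9 and 193 CPM in parental cells, 61.5 and 61.2 in clone 4 and 155 and 149 in clone 2. Its log2 fold changes were -1.73 (SE 0.103, edgeR adjusted p = 3e-08) and -0.42 (SE 0.096, edgeR adjusted p = 0.00308), the latter lost without clone 2 replicate 2 (adjusted p = 0.0621). CXCL12, the chemokine that binds CXCR4, had 159, 146 and 118 CPM in parental cells, 62.4 and 47.8 in clone 4 and 82.8 and 93.7 in clone 2. The 3 groups did not overlap, and the log2 fold changes were -1.35 (SE 0.146, edgeR adjusted p = 7.72e-06) and -0.68 (SE 0.14, edgeR adjusted p = 0.00166). THBS1, the matrix protein thrombospondin 1, had 259.6, 246 and 253 CPM in parental cells, 116 and 96.8 in clone 4 and 186 and 189.9 in clone 2. It fell by 1.25 (SE 0.105, edgeR adjusted p = 8.33e-07) and 0.43 (SE 0.101, edgeR adjusted p = 0.00392) on the log2 scale, and the clone 2 value no longer passed when clone 2 replicate 1 was left out (adjusted p = 0.0594). Tested between the clones, all of these were higher in clone 2, by 1.31 for OLFM1, 0.68 for CXCL12 and 0.82 for THBS1; for CXCL12 this no longer passed when clone 2 replicate 2 was left out (adjusted p = 0.0523).

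AGR2 and AGR3 encode related disulfide isomerases of the secretory pathway and are neighbours on chromosome 7. AGR2 had 2209, 2235 and 1597 CPM in parental cells, 2048 and 1353 in clone 4 and 1131 and 1156 in clone 2. It fell in clone 2 by 0.82 (SE 0.174, edgeR adjusted p = 0.00206) on the log2 scale, and in clone 4, whose libraries straddled the lowest parental one, it was at -0.24 and not called, but was called without clone 4 replicate 1 (-0.57, edgeR adjusted p = 0.0213) or parental replicate 3 (-0.39, edgeR adjusted p = 0.0498). AGR3 had 133, 153 and 125 CPM in parental cells, 237 and 213 in clone 4 and 158 and 153 in clone 2. It rose in clone 4 by 0.71 (SE 0.105, edgeR adjusted p = 1.13e-04) and was at 0.18 and not called in clone 2. WISP2, a matricellular protein of the CCN family, was at 0.55 in clone 4 (edgeR adjusted p = 0.0543; 0.0188 without parental replicate 2) and -0.05 in clone 2. CTSD, the lysosomal protease cathepsin D, was at 0.23 and 0.20, neither called.

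**Figure D3:**
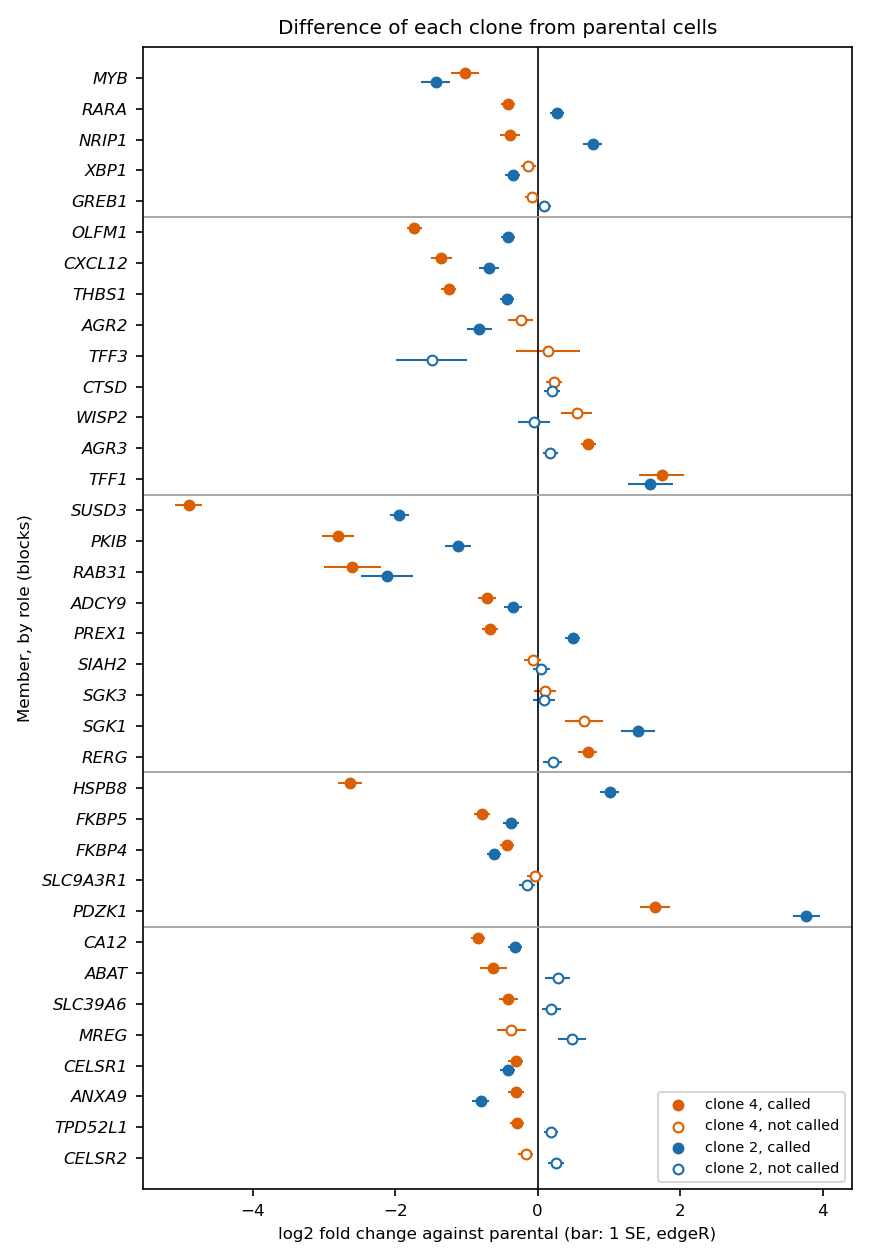
Points give the log2 fold change of each member against parental cells in clone 4 (orange) and clone 2 (blue), with bars of 1 SE from edgeR. Filled points were called at an adjusted p below 0.05. SUSD3 in clone 4, at -4.90, and PDZK1 in clone 2, at 3.77, lie at the ends.

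The signalling members held the deepest falls. SUSD3, a sushi-domain membrane protein, had 37.1, 37.1 and 31.2 CPM in parental cells, 1.24 and 1.09 in clone 4 and 9.39 and 8.97 in clone 2. The groups were far apart, with 18 and 13 counts left in the clone 4 libraries against 426 to 625 in parental ones. SUSD3 was 29.9-fold lower in clone 4 (log2 -4.90, SE 0.193, edgeR adjusted p = 4.75e-10) and 3.83-fold lower in clone 2 (log2 -1.94, SE 0.138, edgeR adjusted p = 1.74e-07). PKIB, an inhibitor of the cAMP-dependent protein kinase, had 11.6, 9.61 and 10.4 CPM in parental cells, 1.72 and 1.25 in clone 4 and 4.69 and 4.96 in clone 2. It took the same order, 6.95-fold lower in clone 4 (edgeR adjusted p = 5.04e-07) and 2.17-fold lower in clone 2 (edgeR adjusted p = 2.63e-04). Between the clones both genes were higher in clone 2, by log2 fold changes of 2.96 (SE 0.223) for SUSD3 and 1.68 (SE 0.253) for PKIB.

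RAB31, a small GTPase of vesicle traffic, had 6.35, 4.09 and 3.59 CPM in parental cells, 0.55 and 1 in clone 4 and 0.597 and 1.42 in clone 2. It rested on 7 to 24 counts per resistant library, and the clones overlapped. The log2 fold changes were -2.60 (SE 0.401, edgeR adjusted p = 1.67e-04) and -2.11 (SE 0.367, edgeR adjusted p = 4.54e-04), and the latter became -2.94 without clone 2 replicate 2. ADCY9, an adenylyl cyclase that makes cAMP, fell by 0.71 in clone 4 and 0.35 in clone 2 on the log2 scale. The clone 2 call was lost without parental replicate 1 or either clone 2 library, with edgeR adjusted p up to 0.308.

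PREX1, an exchange factor that activates RAC, was called in opposite directions. It had 228, 224 and 185 CPM in parental cells, 131 and 137 in clone 4 and 298 and 297 in clone 2, and no groups overlapped. The log2 fold changes were -0.67 (SE 0.109, edgeR adjusted p = 2.77e-04) in clone 4 and 0.49 (SE 0.106, edgeR adjusted p = 0.0022) in clone 2, and the clones differed by 1.15 (SE 0.119, edgeR adjusted p = 1.72e-05). SGK1, a kinase that glucocorticoids also induce, had 1.98, 2.19 and 1.32 CPM in parental cells, 3.09 and 2.67 in clone 4 and 4.86 and 4.96 in clone 2. All resistant libraries were above the parental ones. It rose in clone 2 by 1.41 (SE 0.239, edgeR adjusted p = 3.7e-04) and was at 0.65 in clone 4 (edgeR adjusted p = 0.0591), which was called without parental replicate 2 (0.82, adjusted p = 0.0414). RERG, a Ras-like protein that slows growth, rose in clone 4 by 0.70 (SE 0.136, edgeR adjusted p = 9.41e-04) and was at 0.21 in clone 2, not called. SGK3, a relative of SGK1, and the ubiquitin ligase gene SIAH2 were within 0.10 of 0 in both clones and not called.

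Among scaffolds and chaperones, PDZK1 and HSPB8 stood out. PDZK1, a PDZ-domain scaffold of membrane transporters, had 3.47, 5.52 and 2.71 CPM in parental cells, 12 and 13.1 in clone 4 and 54.3 and 54.7 in clone 2. Each group lay above the previous one without overlap. PDZK1 was 3.14-fold higher in clone 4 (log2 1.65, SE 0.21, edgeR adjusted p = 3.21e-05), 13.7-fold higher in clone 2 (log2 3.77, SE 0.189, edgeR adjusted p = 5e-09) and 4.34-fold higher in clone 2 than in clone 4 (edgeR adjusted p = 6.54e-06). A related sequence, PDZK1P1, had 0 counts in every library, and how the counting treated reads shared by such copies is not given in the sources used here.

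HSPB8, a small heat shock protein that helps clear misfolded proteins, had 35.3, 31.4 and 40.3 CPM in parental cells, 6.8 and 4.59 in clone 4 and 73 and 70.8 in clone 2. Clone 4 lay far below and clone 2 above every parental library. The gene was 6.18-fold lower in clone 4 (log2 -2.63, SE 0.171, edgeR adjusted p = 7.65e-08) and 2.02-fold higher in clone 2 (log2 1.01, SE 0.132, edgeR adjusted p = 4.46e-05). The clones differed 12.5-fold (log2 3.64, SE 0.178, edgeR adjusted p = 2.83e-08), the widest gap between them among the members.

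The immunophilins FKBP4 and FKBP5, cochaperones of HSP90 in steroid receptor complexes, both fell. FKBP4 had log2 fold changes of -0.43 (SE 0.0967, edgeR adjusted p = 0.00257) in clone 4 and -0.61 (SE 0.0973, edgeR adjusted p = 2.18e-04) in clone 2. FKBP5, also induced by glucocorticoids and progestins, had -0.78 (SE 0.114, edgeR adjusted p = 1e-04) and -0.38 (SE 0.112, edgeR adjusted p = 0.014), and the clone 2 call was lost without parental replicate 1 or either clone 2 library, with adjusted p up to 0.108. Counts of AC005841.1, on the opposite strand of FKBP4 exons, came to 30.8% of those of FKBP4. SLC9A3R1, a PDZ scaffold at the cell cortex, was at -0.04 and -0.15 and not called.

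**Figure D4:**
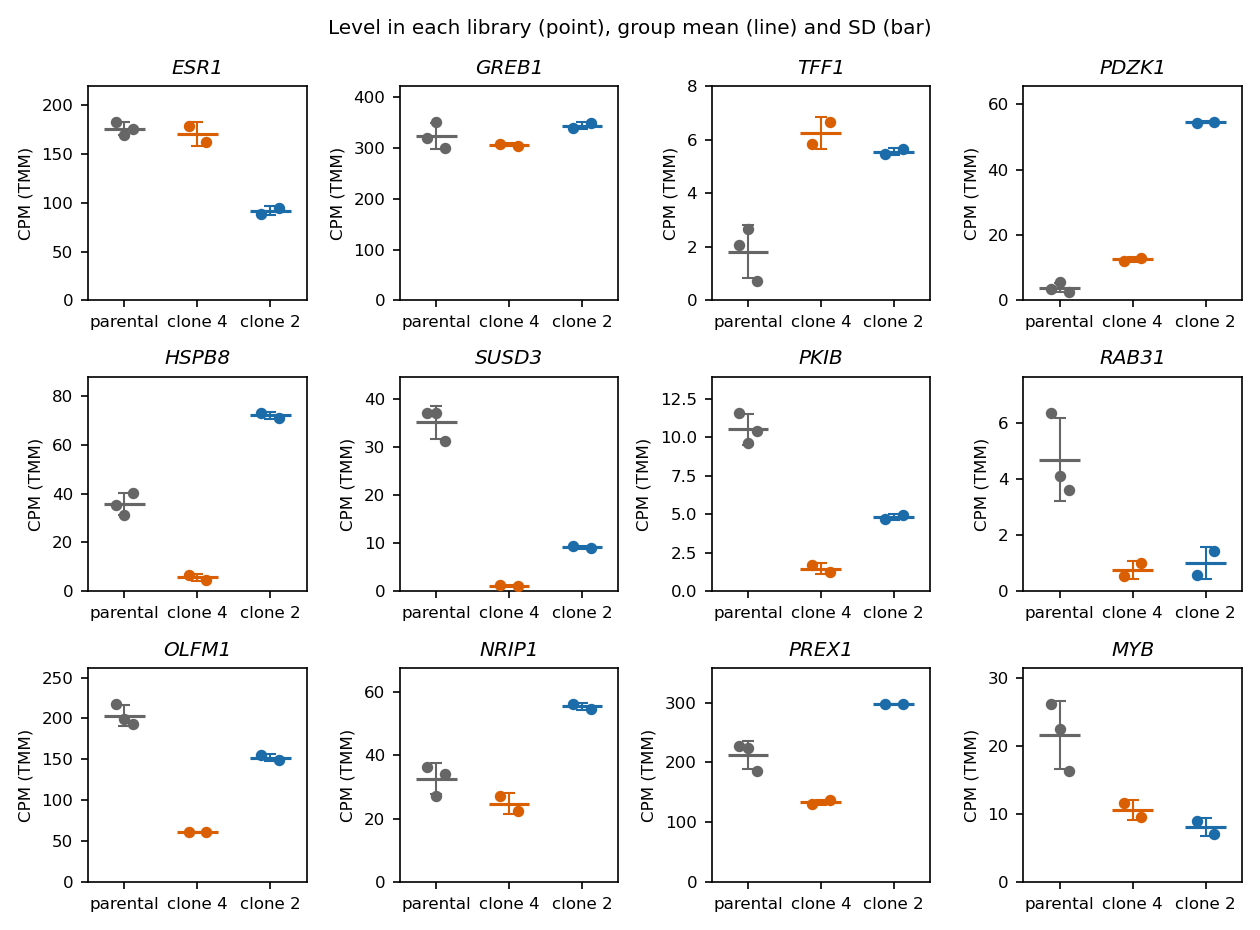
Points are TMM-scaled CPM of ESR1 and 11 members in each library, lines are group means and bars are the SD over 3 parental, 2 clone 4 and 2 clone 2 libraries, with axes starting at 0. HSPB8, NRIP1 and PREX1 are highest in clone 2 while ESR1 is lowest there.

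Of the 8 membrane genes and enzymes, 6 fell and none rose in clone 4, where 22.3% of all genes fell, and the log2 fold changes ran from -0.84 to -0.17. CA12, a carbonic anhydrase of the cell surface, fell most, by 0.84 (SE 0.0954, edgeR adjusted p = 1.27e-05), from a mean of 576 ± 24.9 CPM (SD, n = 3) in parental cells to 322 ± 8.14 (SD, n = 2). In clone 2 only CA12, CELSR1 and ANXA9 of these fell and none rose, where 20.8% of all genes fell. The values there ran from -0.80 to 0.48 with a median of 0.19, and between the clones 6 of the 8 were higher in clone 2, where 19.6% of all genes were. ANXA9, an annexin, had 166, 177 and 139 CPM in parental cells, 137 and 124 in clone 4 and 91.2 and 93 in clone 2. It fell in clone 2 by 0.80 (SE 0.115, edgeR adjusted p = 9.6e-05), while its clone 4 call of -0.30 (edgeR adjusted p = 0.0447) was lost in 5 of the 7 fits without a library: without parental replicate 1 or 2, clone 4 replicate 2 or either clone 2 library. CELSR1, a cadherin of planar cell polarity, fell by 0.31 and 0.42, and these calls were lost without parental replicate 1 or clone 4 replicate 1 in clone 4, and without clone 2 replicate 2 in clone 2. The clone 2 call of CA12 (-0.32, edgeR adjusted p = 0.0133) was lost without either clone 2 library.

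ABAT and MREG separated the clones. ABAT, which breaks down the transmitter GABA, had 32.7, 30 and 21.3 CPM in parental cells, 21.4 and 14.8 in clone 4 and 36.4 and 31.6 in clone 2. It was higher in clone 2 than in clone 4 by 0.90 (SE 0.201, edgeR adjusted p = 0.00352), and its clone 4 fall of 0.62 on the log2 scale was lost without parental replicate 1 or 2 or clone 4 replicate 2. MREG, which encodes melanoregulin, a protein of organelle transport, had 11.5, 8.78 and 8.36 CPM in parental cells, 8.93 and 5.59 in clone 4 and 13.4 and 13.2 in clone 2. It was higher in clone 2 than in clone 4 by 0.86 (SE 0.219, edgeR adjusted p = 0.00801), which was no longer called when clone 4 replicate 2 was left out (adjusted p = 0.0732), and was called against parental cells in neither clone. Without a single library it passed the threshold in clone 4 in 1 fit (without clone 4 replicate 1) and in clone 2 without parental replicate 1 or either clone 4 library. SLC39A6, a zinc transporter, and TPD52L1, of the D52 family, fell in clone 4 by 0.41 and 0.29 on the log2 scale and were at 0.19 each in clone 2, not called, although TPD52L1 was called there without parental replicate 3 (0.24, edgeR adjusted p = 0.0418). The SLC39A6 call was lost without parental replicate 1 or clone 4 replicate 2, and the TPD52L1 call without clone 4 replicate 2 or either clone 2 library. CELSR2, another cadherin, was at 0.26 in clone 2 (edgeR adjusted p = 0.0715), which was called without clone 4 replicate 1 or 2 (0.0329 and 0.033) or with only the groups compared (0.0328). Between the clones it was called at 0.43, and that call was lost without clone 4 replicate 1 or either clone 2 library. Other genes overlap exons of ABAT (TMEM186, 86.8% of its counts), MREG (PECR, 102%) and TPD52L1 (HDDC2, 63.4%), and whether the counting separated their reads is not known. The same limit holds for SGK3 (C8orf44, 16.1%), CTSD (AC068580.3, 13.2%), SIAH2 (SIAH2-AS1, 7.09%) and MYB (MYB-AS1, 6.99%). With NRIP1 and FKBP4, 9 members had an overlapping gene of at least 5% of their counts.

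Of 23 listed genes of the receptor's own machinery, which are receptors, pioneer factors, coregulators and chaperones, all tested, 3 rose and 7 fell in clone 4 and 7 rose and 3 fell in clone 2, and between the clones 10 were higher and 2 lower in clone 2. In all, 43.5% of the list was called in each clone, against 44.4% of all genes in clone 4 and 42.5% in clone 2, so the share called was near that of all genes. Between the clones 43.5% were higher and 8.7% lower, against 19.6% and 17.0% of all genes. The median log2 fold changes were -0.13, 0.13 and 0.36. GATA3, a luminal transcription factor, was at -0.00 and -0.05 and not called. FOXA1 was at -0.20 in clone 4, not called, and fell by 0.26 in clone 2 (edgeR adjusted p = 0.04). The coactivator gene CITED1 rose in clone 4 from a mean of 3.42 ± 1.97 CPM (SD, n = 3) in parental cells to 24.3 ± 0.125 (SD, n = 2), and was at 0.20 in clone 2. The corepressor gene SPEN rose in clone 2 by 0.87. ESR2 and GPER1, the other estrogen receptors, stayed at or below 1.89 CPM in every library. ESR2 rose in both clones, by 1.17 and 1.25, and GPER1 in clone 2, by 1.70.

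Of 29 listed estrogen-induced genes outside the members, 28 were tested; 9 rose and 7 fell in clone 4, with a median of 0.06 on the log2 scale, and 12 rose and 8 fell in clone 2, with a median of 0.17. Between the clones 11 were higher and 6 lower in clone 2. The shares higher and lower were 32.1% and 25% in clone 4, against 22.1% and 22.3% of all genes, and 42.9% and 28.6% in clone 2, against 21.7% and 20.8%. Between the clones they were 39.3% and 21.4%, against 19.6% and 17.0%. PGR, the progesterone receptor gene, fell from 442 ± 106 CPM (SD, n = 3) to 248 ± 69.5 in clone 4 and 223 ± 11.3 in clone 2 (SD, n = 2 each). AREG, an EGF-family growth factor, rose in clone 2 by 3.93 (SE 0.307, edgeR adjusted p = 4.26e-07) and was at 0.15 in clone 4. It had only 4 to 9 counts per parental library and 9 and 5 in the clone 4 libraries. GFRA1, a coreceptor for RET, rose by 2.26 in clone 4 and fell by 3.41 in clone 2, while RET rose in both, by 2.02 and 1.55. The GFRA1 value in clone 2 rested on 2 and 4 counts in its libraries. KRT13, a keratin, rose by 1.94 and 2.66, and FHL2, a LIM-domain cofactor, by 1.75 and 0.80. BCL2, which blocks apoptosis, was at or below 1.82 CPM throughout and fell in clone 2 by 1.98.

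Genes that make or clear estrogen were tested in 11 of 15 cases, with 3 higher and 5 lower in clone 4 and 3 higher and 6 lower in clone 2. Between the clones 5 were higher and 3 lower in clone 2. Of the 11, 27.3% were higher in either clone, against 22.1% and 21.7% of all genes. The shares lower were 45.5% in clone 4 and 54.5% in clone 2, against 22.3% and 20.8%, and between the clones 45.5% were higher and 27.3% lower, against 19.6% and 17.0%. HSD17B1, which turns estrone into estradiol, fell from 128 ± 16.4 CPM (SD, n = 3) to 29.1 ± 1.7 in clone 4 and 75.1 ± 0.316 in clone 2 (SD, n = 2 each). CYP1A1 and CYP1B1, which hydroxylate estrogens and answer the aryl hydrocarbon receptor, rose by 2.51 and 1.16 in clone 4 and by 6.17 and 1.99 in clone 2. CYP1A1 had 1 to 4 counts per parental library. STS, the steroid sulfatase, rose in clone 2 by 2.12, and the sulfotransferase gene SULT2B1 fell there by 1.74. HSD17B7, also an enzyme of cholesterol synthesis, fell by 1.15 and 0.85.

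Genes that answer glucocorticoids or progestins were listed because FKBP5 and SGK1 answer these hormones too. Of 12, all tested, 4 rose and 2 fell in clone 4, and 10 rose and none fell in clone 2. The clone 4 shares were 33.3% higher and 16.7% lower, against 22.1% and 22.3% of all genes, and the share higher in clone 2 was 83.3%, against 21.7%. Between the clones 6 were higher and 1 lower in clone 2, or 50% and 8.33%, against 19.6% and 17.0% of all genes. DUSP1, a phosphatase of MAP kinases, rose in clone 2 by 3.12, MAOA by 3.15 and TSC22D3 by 1.13, where MAOA rested on 1 to 3 counts per parental library. NFKBIA, the NF-kB inhibitor, rose by 2.31 and 2.25, ERRFI1 by 1.66 and 1.34 and CEBPD by 1.61 and 0.79. FKBP5 itself fell in both clones, and the glucocorticoid receptor gene NR3C1 was at -0.34 and -0.12, not called. Several of these genes also answer inflammatory or growth signals.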

How the data were processed

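Sequencing counts of 7 T47D libraries were analysed: 3 parental, 2 of clone 4 and 2 of clone 2. The authors deposited raw read counts per Ensembl gene, used as they stood. FastQC, CASAVA and STAR on hg19 were named without versions, per the submitters' processing notes; of the counting program, gene models and strandedness, nothing is stated in the labels or headers. Genes without a name, 1.02% to 1.41% of counts, stayed in the fit.

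Counts were tested with edgeR 4.0.16 in R 4.3.3 (filterByExpr, minimum count 10; TMM; robust quasi-likelihood fit of 3 group means to all 7 libraries). Adjusted p-values are Benjamini-Hochberg over 17502 genes, and standard errors come from the quasi-F statistic. The code was tested on simulated data. The members and the companion lists were chosen with earlier results of these data known, and no test of a list was made. Members with the 10 largest called changes per comparison, plus GREB1 and TFF1, are given by library; up to 6 called genes are named per companion list, plus ESR1, PGR, FOXA1 and GATA3. A gene that this rule names is not reported here. TFF3 and AGR3 were given by library after their values were seen. Libraries held 10997625 to 17524621 counts; counts limit the precision of the lowest members. Alternatives were RLE scaling, DESeq2 1.42.0, other filters, a fold of 1.5, only the groups compared, a replicate block and leaving out each library. The replicate numbers of clone 2 were assigned here and differ from those in the labels.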

Additional observations from a re-analysis of the deposited data

Results flagged for a closer look

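The log2 fold changes of 22 members differed between the resistant clones in the edgeR test of clone 2 against clone 4, which tests the difference itself. This was 61.1% of the members, against 36.5% of all genes tested. Higher in clone 2 were HSPB8 by 3.64, SUSD3 by 2.96, PDZK1 by 2.12, PKIB by 1.68, OLFM1 by 1.31, NRIP1 by 1.16 and PREX1 by 1.15. Smaller values were 0.90 for ABAT, 0.86 for MREG, 0.82 for THBS1, 0.76 for SGK1, 0.68 for both CXCL12 and RARA, 0.60 for SLC39A6, 0.51 for CA12, 0.48 for TPD52L1, 0.43 for CELSR2 and 0.40 for FKBP5. Lower in clone 2 were AGR2 at -0.57, AGR3 at -0.53, ANXA9 at -0.51 and RERG at -0.50. The calls of 12 of the 22 held without any single library. Those of SGK1, RERG, CELSR2, FKBP5, AGR2, AGR3, ANXA9, SLC39A6, CXCL12 and MREG did not, so that no call of a lower member held in all such fits. TFF3 had a larger negative value, -1.63, that was not called. How many of all genes kept their calls without any single library was not counted. Groups of 3 and 2 libraries were too small for a test of single outlying libraries.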

How the results depend on the processing

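RLE scaling and the stricter filter changed the call or direction of none of the 108 member values, DESeq2 changed 4 and no filter beyond 1 count changed 5. Tested against a fold of 1.5, 2 members were higher and 9 lower in clone 4, 4 higher and 4 lower in clone 2, and 7 higher and 0 lower in clone 2 against clone 4; of all 17502 genes, 1246 and 1136, 1489 and 688, and 911 and 482 passed. With the replicate block, 7 members were lower in clone 2 against clone 4, in place of 4, and 3667 in place of 2974 of all genes. With only the groups compared, 16 members were lower in clone 4, in place of 20, and 3396 in place of 3909 of all genes. That setting ended the clone 4 calls of NRIP1 (edgeR adjusted p = 0.0622), TPD52L1 (0.0655), CELSR1 (0.0503) and ANXA9 (0.0835). It added those of MREG and CELSR2 in clone 2 and of TFF3 and WISP2 between the clones. Without 1 parental library, members lower in clone 4 ranged from 15 to 20, and all genes lower from 3174 to 4152. In the same fits, members lower in clone 2 against parental cells ranged from 12 to 16, and all genes lower from 3080 to 3880. Members lower in clone 2 against clone 4 then ranged from 4 to 6, and all genes lower from 2769 to 3435. Without a clone 2 library, which left 1 in that group, fewer members and fewer of all genes were called lower in both comparisons. All 7 libraries were left out in turn, 1 per fit. Of the calls, 18 of 24 in clone 4, 14 of 22 in clone 2 and 12 of 22 between the clones held in every such fit. Parental and clone 4 libraries share replicate numbers in the labels but are not said to be paired. Clone 2 libraries carry other numbers in the labels and were renumbered here. Matching them by number thus has no basis in the labels. Deviations of libraries matched by number correlated at 0.27 and 0.16 for clone 4 and parental cells. They correlated at -0.01 and -0.04 for clone 2 and parental cells, and at -0.12 for both numbers between the clones. Parental replicate 3 had no match, so with the block it added nothing to the differences between groups. Changes made by the block in comparisons with clone 2 therefore cannot be read as an effect of pairing. The block left the call and direction of 93 of the 108 member values. It ended the calls of RARA in clone 2 (edgeR adjusted p = 0.0661) and TPD52L1 in clone 4 (0.0573), and added 9 calls. These were AGR2 (-0.41, adjusted p = 0.0124) and MREG in clone 4, MREG, TPD52L1 and TFF3 in clone 2, and TFF3, MYB, ADCY9 and WISP2 between the clones. It reversed values that were not called: TFF3 in clone 4 became -0.18, SIAH2 in clone 2 -0.06, and SGK3 -0.07 in clone 4 and -0.08 in clone 2. TFF3 in clone 2 became -1.82 (edgeR adjusted p = 8.89e-11), beside -1.83 without parental replicate 3 and with no block. Without 1 library, uncalled values also changed sign: in clone 4, TFF3 ranged from -0.20 to 0.53, AGR2 from -0.57 to 0.02, SIAH2 from -0.19 to 0.02, SLC9A3R1 from -0.18 to 0.09 (and 0.03) and SGK3 from -0.08 to 0.19. In clone 2, WISP2 ranged from -0.27 to 0.16, SIAH2 from -0.07 to 0.14 (-0.00 without clone 2 replicate 2) and SGK3 from -0.08 to 0.18. Between the clones, RAB31 ranged from -0.34 to 0.95, SLC9A3R1 from -0.24 to 0.03 and SGK3 from -0.07 to 0.06 (0.01 without clone 2 replicate 1). The cause of these changes was not tested.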
